A study of Mus musculus with 14 samples.

Results

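The 10 genes described here encode the enzymes that hydroxylate proline and lysine in newly made collagen chains, together with their partner subunits and a collagen chaperone. The set is defined by gene name, with earlier results of these data known: P4ha1, P4ha2, P4ha3 and P4hb of prolyl 4-hydroxylase, the lysyl hydroxylases Plod1, Plod2 and Plod3, the prolyl 3-hydroxylase P3h1 with its partner Crtap, and the chaperone Serpinh1. All 10 were found among the 39179 genes of the differentiation table, where P3h1 carries its older name Lepre1, and among the 35886 genes summed from the sorted files. All 10 also passed the filter on low values in both experiments, so none was lost before testing.

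RNA was sequenced from Ocy454 cells, a mouse osteocyte-like line that is conditionally immortalized by a thermosensitive large T antigen, so every group shares that transgene and the origin in a single line. The cells were grown at 33 °C to confluence and then moved to 37 °C, where they stop dividing and differentiate. In the first experiment there were 2 libraries at each of days 1, 7, 10 and 14 at 37 °C, with no other treatment. In the second, live cells at day 17 were stained for CD61, the integrin beta subunit encoded by Itgb3, and the brightest 10% (CD61 high) and dimmest 10% (CD61 low) were collected, with 3 libraries of each. The study's methods describe 3 independent groups of cells that were each sorted, so CD61 high and CD61 low libraries share their origin, and the labels show which belong together at most through the replicate numbers. The questions were how these genes move as the cells differentiate and how they differ between cells with the most and the least CD61 on their surface.

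The differentiation libraries held 27518605 to 34311238 reads on genes and the sorted libraries 18815602 to 19220064 estimated reads. Among 13 osteoblast and osteocyte markers, Fgf23 was at 0 in all 8 differentiation libraries and Mepe stayed below 1 CPM. Sost, which encodes the osteocyte product sclerostin, went from 0 in both day 1 libraries to 18.0 and 17.3 CPM at day 14. Runx2, Sp7, Alpl, Bglap, Ibsp, Spp1, Dmp1 and Phex were also higher in both day 14 libraries than in both day 1 libraries. Col1a1 and Pdpn were lower, with Pdpn at 28.4 and 28.0 CPM on day 1 and at 19.4 and 19.2 on day 14. In the sort, Itgb3 stood at 5.31, 5.54 and 6.10 TMM-normalized CPM in CD61 low cells and at 130.1, 100.1 and 103.6 in CD61 high cells, on the side their labels give. Of 10 macrophage markers 8 were below 1 CPM in every group, as were all 6 adipocyte markers and 5 of 6 endothelial markers. The remaining endothelial marker was Vwf, which brought the summed endothelial list to 124 to 132 CPM at day 10, against 0.690 to 1.33 (day 1), 4.68 to 6.36 (day 7) and 18.0 to 19.3 (day 14). The 7 chondrocyte markers summed to 84.8 to 85.8 CPM (day 1), 78.1 to 80.6 (day 7), 70.1 to 70.9 (day 10) and 104.5 to 123.5 (day 14). The sum followed Acan, which averaged 60.0, 50.6, 27.7 and 84.0 CPM on these days. Sox9 averaged 18.5, 24.0, 37.0 and 25.3 and was highest at day 10, and Comp averaged 4.68, 2.07, 2.90 and 1.43 and was lowest at day 14. The part of these marker genes in any result below was not tested. In bulk libraries such as these, fewer cells of a type and less RNA per cell cannot be told apart.

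Collagen chains are modified in the endoplasmic reticulum before they fold. Prolyl 4-hydroxylase, a complex of catalytic alpha subunits and the beta subunit protein disulfide isomerase, makes the hydroxyproline that stabilizes the triple helix, and it needs oxygen, iron, 2-oxoglutarate and ascorbate. The lysyl hydroxylases make hydroxylysine, the base of collagen crosslinks and sugar attachment, and in bone these modifications shape the strength of the matrix. P3h1, Crtap and cyclophilin B form a complex that hydroxylates proline at another carbon at selected sites, and Serpinh1, also called Hsp47, holds the folded triple helix on its way to the Golgi.

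Over differentiation the genes did not move together. The alpha subunit genes P4ha1 and P4ha2 rose several-fold by day 7, were lower again at day 10 and stood high at day 14, P4ha3 fell, Plod2 rose, P3h1 fell, and the others stayed within 1 unit of Log2FC. Log2FC is here the difference in log2(CPM + 1), CPM being the reads on a gene scaled to the library total. A gene passed when its adjusted p from limma, over the 12725 genes tested, was below 0.01, and it was called when Log2FC was also above 1 or below -1.

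P4ha1, which lies at chr10:59159092-59209126 (GRCm39, plus strand), encodes the alpha subunit regarded as the main one in most tissues. Its 2 day 1 libraries gave 172 and 172 CPM, those of day 7 gave 926 and 918, those of day 10 477 and 447, and the day 14 pair 889.97 and 899. Days 7 and 14 were both high, without overlap, and day 10 stood between them and day 1. P4ha1 was called higher than day 1 on each later day, with Log2FC of 2.41 ± 0.04 (day 7; SE; adjusted p = 4.8e-27), 1.42 ± 0.04 (day 10) and 2.37 ± 0.04 (day 14; adjusted p = 5.0e-27). These 3 comparisons share the day 1 libraries, so they are not independent. From day 7 to day 10 it fell by 1.00 on the log2 scale, which passed the test without being called.

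P4ha2 (chr11:53981553-54022494, GRCm39, plus strand) encodes the second alpha subunit, known for its expression in cartilage and bone cells. The levels were 132 and 132 CPM (day 1), 700.1 and 710.3 (day 7), 434 and 392 (day 10), then 935 and 933 (day 14). No day overlapped another, and day 14 was the highest. Its Log2FC against day 1 was 2.41 ± 0.04 (day 7), 1.63 ± 0.04 (day 10) and 2.81 ± 0.04 (day 14; adjusted p = 8.5e-28). It was the member called higher at day 14 than at day 10, with Log2FC of 1.18.

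P4ha3 (chr7:99934686-99968907, GRCm39, plus strand), the third alpha subunit gene, was lower than day 1 on the later days and started from a low level. It was read at 26.0 and 24.7 CPM on day 1, then at 4.89 and 5.17 (day 7), 3.09 and 2.64 (day 10) and 3.56 and 3.60 (day 14), with 82 to 880 reads behind each value. Both day 1 libraries were far above all later ones. P4ha3 was called lower than day 1 on every later day, with Log2FC of -2.13 ± 0.11, -2.77 ± 0.11 and -2.53 ± 0.11 (adjusted p = 2.1e-17) at days 7, 10 and 14.

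The start regions of the alpha subunit genes are shown because P4ha1 and P4ha2 were called higher and P4ha3 lower than day 1 on every later day. Each window runs from 250 bases before to 50 bases after the RefSeq start in GRCm38.p6, all on the plus strand, at chr10:59323046-59323345, chr11:54100674-54100973 and chr7:100285270-100285569. Capitals mark ACGTG and GCGTG on either strand, both of them forms of the core of the element that hypoxia-inducible factors can bind.
P4ha1: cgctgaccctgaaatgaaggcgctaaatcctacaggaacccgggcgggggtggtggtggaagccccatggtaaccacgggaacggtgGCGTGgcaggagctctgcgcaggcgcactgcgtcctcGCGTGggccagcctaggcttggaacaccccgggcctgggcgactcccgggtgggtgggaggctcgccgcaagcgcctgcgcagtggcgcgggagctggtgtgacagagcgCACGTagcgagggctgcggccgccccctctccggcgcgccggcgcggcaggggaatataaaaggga
P4ha2: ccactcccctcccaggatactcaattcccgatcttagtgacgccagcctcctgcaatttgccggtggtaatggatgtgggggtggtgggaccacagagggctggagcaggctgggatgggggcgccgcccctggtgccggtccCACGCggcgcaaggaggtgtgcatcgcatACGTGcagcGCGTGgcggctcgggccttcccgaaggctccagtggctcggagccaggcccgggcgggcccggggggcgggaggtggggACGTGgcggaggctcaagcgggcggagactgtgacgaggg
P4ha3: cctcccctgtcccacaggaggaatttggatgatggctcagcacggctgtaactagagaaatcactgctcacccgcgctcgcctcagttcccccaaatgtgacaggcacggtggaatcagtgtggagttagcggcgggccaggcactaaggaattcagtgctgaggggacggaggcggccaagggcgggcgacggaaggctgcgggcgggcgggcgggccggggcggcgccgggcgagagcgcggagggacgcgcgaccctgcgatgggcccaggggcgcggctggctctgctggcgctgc

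P4ha2 held ACGTG at 78 bases before and 10 bases after the start, and P4ha1 held it at 16 bases before the start, on the minus strand. The P4ha3 window held neither motif, which says only that these letters are not in this window. Of the 32851 promoter windows of the same length, 19.6% held ACGTG, 32.4% held GCGTG and 43.8% held at least 1 of them. Of the 10 windows that belong to 9 of the genes, P3h1 having a pair and Plod2 none, 6 held ACGTG, 7 held GCGTG and 9 held at least 1 of them. Both motifs contain CG, and these 10 windows were 53.3% to 70.3% G and C. The set of all windows was not matched for this, so the shares are not like for like. Those with ACGTG included windows of Plod3, P3h1 and Serpinh1, which with the main settings did not pass as higher than day 1 on any later day. They also included the window of P4hb, which passed as higher on each later day. Whether the motifs relate to the levels was not tested. TATAAA and GAANNTTC, not marked above, were also searched on both strands and were held by 3 and 1 of the 10 windows and by 13.6% and 7.86% of all windows. A match is a run of letters and was not shown here to be a bound site.

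P4hb (chr11:120451122-120464538, GRCm39, minus strand) encodes the beta subunit, protein disulfide isomerase, which also works outside prolyl 4-hydroxylase. Its CPM values were 1714 and 1746 (day 1), 2142 and 2190.2 (day 7), 2000.0 and 1954 (day 10), then 2285 and 2406 (day 14). It rose with each later day against day 1 by less than a called difference, with Log2FC of 0.32, 0.19 and 0.44 at days 7, 10 and 14. Per length (CPM per kb of the listed gene length), the summed alpha subunit genes came to 14.99% and 14.6% of P4hb (day 1), 57.4% and 56.2% (day 7), 34.2% and 32.3% (day 10), then 59.5% and 56.8% (day 14). The alpha subunit genes were therefore below P4hb in every library, and by the widest margin at day 1.

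Within the alpha subunit genes, again per length, P4ha1 held 54.1% ± 0.13 (SD, n = 2) on day 1, then 60.2% ± 0.40 (day 7), 56.5% ± 0.68 (day 10) and 52.7% ± 0.20 (day 14). P4ha2 held 35.4%, 39.3%, 43.1% and 47.0% on the same days, a share that was higher on each later day. P4ha3 held 10.5% at day 1 and 0.434%, 0.461% and 0.278% afterwards. These shares rest on listed lengths of 4210 bases for P4ha1 and 4936 for P4ha2. In sorted cells the P4ha2 transcripts with a mean share of at least 10% had 2094 to 2263 bases, against 2387 to 4043 for P4ha1. Which of the pair is the larger thus depends on the length used. Before division by length, P4ha2 averaged 934 CPM and P4ha1 894 at day 14.

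**Figure D1:**
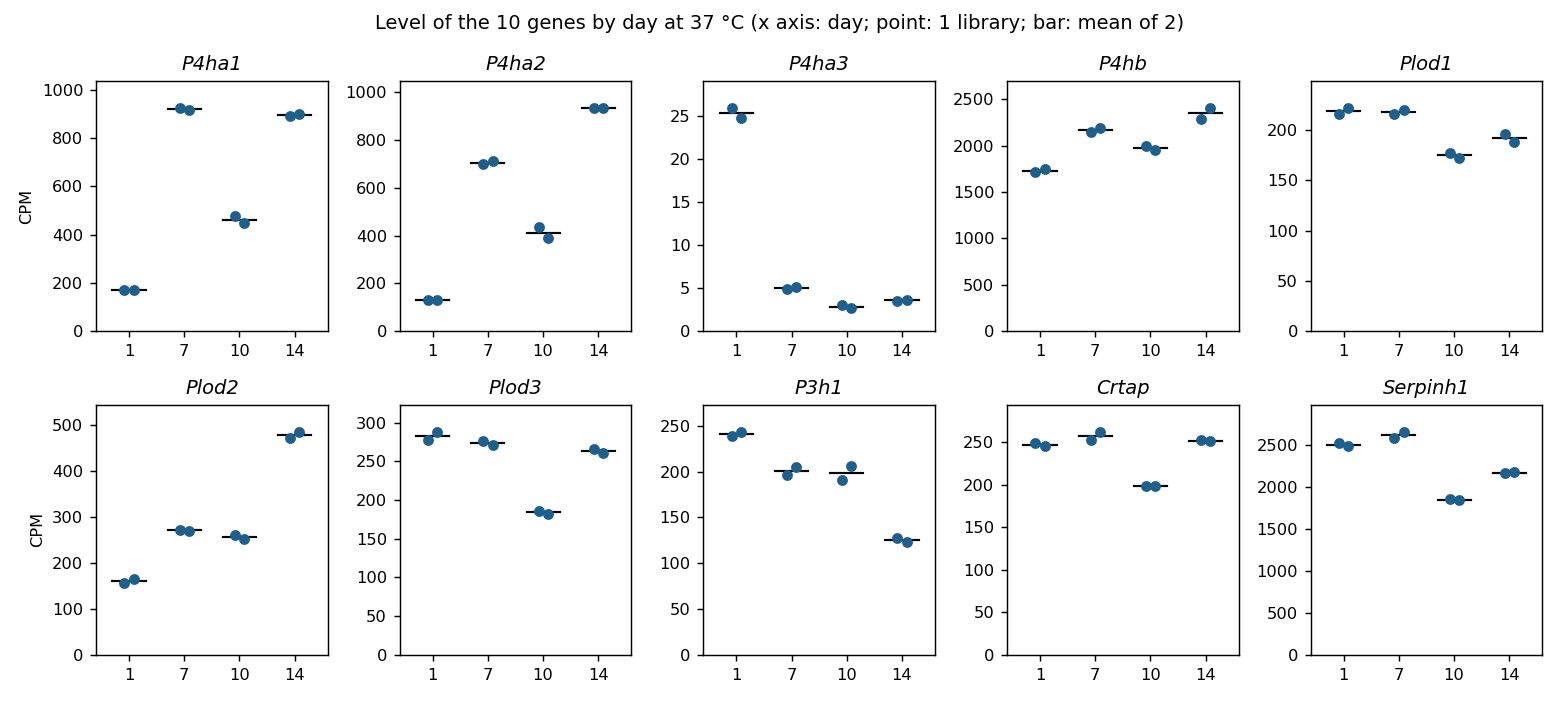
Level of each gene in CPM (vertical axes, each from 0) by day at 37 °C (horizontal axes), with 1 point per library and a bar at the mean of 2. P4ha1 and P4ha2 stand high at days 7 and 14 and lower at day 10, P4ha3 is high only at day 1 among these days, and P3h1 is lowest at day 14.

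The lysyl hydroxylase genes split in the same period. Plod2 (chr9:92424119-92490494, GRCm39, plus strand), whose product hydroxylates lysines in the collagen telopeptides, gave 156 and 166 CPM on day 1, then 273 and 271 (day 7), 260.4 and 253 (day 10) and 472 and 486 (day 14). Day 14 was above all other days and day 1 below them. Its Log2FC against day 1 was 0.75, 0.67 and 1.57 ± 0.04 (adjusted p = 8.7e-23) at days 7, 10 and 14, so it was called at day 14 only, of these days.

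Plod1 (chr4:147991574-148021356, GRCm39, minus strand), whose product acts on lysines within the helix, gave 215 and 222 CPM on day 1, then 216 and 219.9 (day 7), 177 and 172 (day 10) and 196 and 188 (day 14). Days 1 and 7 overlapped, and the later days were lower, with Log2FC of -0.32 at day 10 and -0.19 at day 14. Plod3 (chr5:137015827-137025502, GRCm39, plus strand), whose product also attaches sugars to hydroxylysine, gave 278 and 288 CPM on day 1, then 277 and 271 (day 7), 186 and 182 (day 10) and 266 and 261 (day 14). Day 10 was far below the other days, with Log2FC of -0.62 against day 1, while day 14 did not pass against day 1 (Log2FC -0.10, adjusted p = 0.014).

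Per length, Plod2 made up 25.0% and 25.5% of the 3 lysyl hydroxylase genes on day 1, then 36.9% and 36.8% (day 7), 43.0% and 42.9% (day 10) and 51.9% and 53.4% (day 14). Its share was larger on each later day, and no day overlapped another. Plod3 went from 41.3% at day 1 to 26.8% at day 14 and Plod1 from 33.4% to 20.5%.

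P3h1 (chr4:119089974-119106174, GRCm39, plus strand), the prolyl 3-hydroxylase of fibrillar collagens, gave 239 and 244 CPM on day 1, then 196 and 205 (day 7), 191 and 205 (day 10) and 127 and 123 (day 14). Days 7 and 10 overlapped and day 14 was the lowest. Its Log2FC against day 1 was -0.27, -0.28 and -0.94 ± 0.04 (adjusted p = 3.8e-17), which passed on each day without being called. Its partner Crtap (chr9:114202582-114219802, GRCm39, minus strand) did not follow it, with 249 and 245 CPM on day 1, then 253 and 263 (day 7), 199 and 199 (day 10) and 253 and 251 (day 14). For Crtap, day 10 was lower than day 1 (Log2FC -0.31), and day 14 did not pass against day 1 (Log2FC 0.03, adjusted p = 0.47).

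Serpinh1 (chr7:98994220-99005076, GRCm39, minus strand), the collagen chaperone, gave 2520.5 and 2483 CPM on day 1, then 2579 and 2659 (day 7), 1859 and 1838 (day 10) and 2165 and 2174 (day 14). It was lower than day 1 at days 10 and 14, with Log2FC of -0.44 and -0.21, and did not pass at day 7 (0.07, adjusted p = 0.16). Over all settings its day 7 Log2FC reached at most 0.11 and its adjusted p went as low as 0.0063, so it passed as higher in an alternative. Per length it was the highest of the 10 genes at day 1, at 1030 ± 11 CPM per kb (SD, n = 2), and at day 14, at 893 ± 2.7, followed on both days by P4hb. P4ha1 moved from the seventh to the third place in that order and P4ha2 from the ninth to the fourth, while P3h1 moved from the fifth to the ninth. The order also depends on the listed lengths. At day 14 Crtap, at 114.7 ± 0.46 CPM per kb, and Plod2, at 107 ± 2.2, were neighbours in the order that lay close together but did not overlap.

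**Figure D2:**
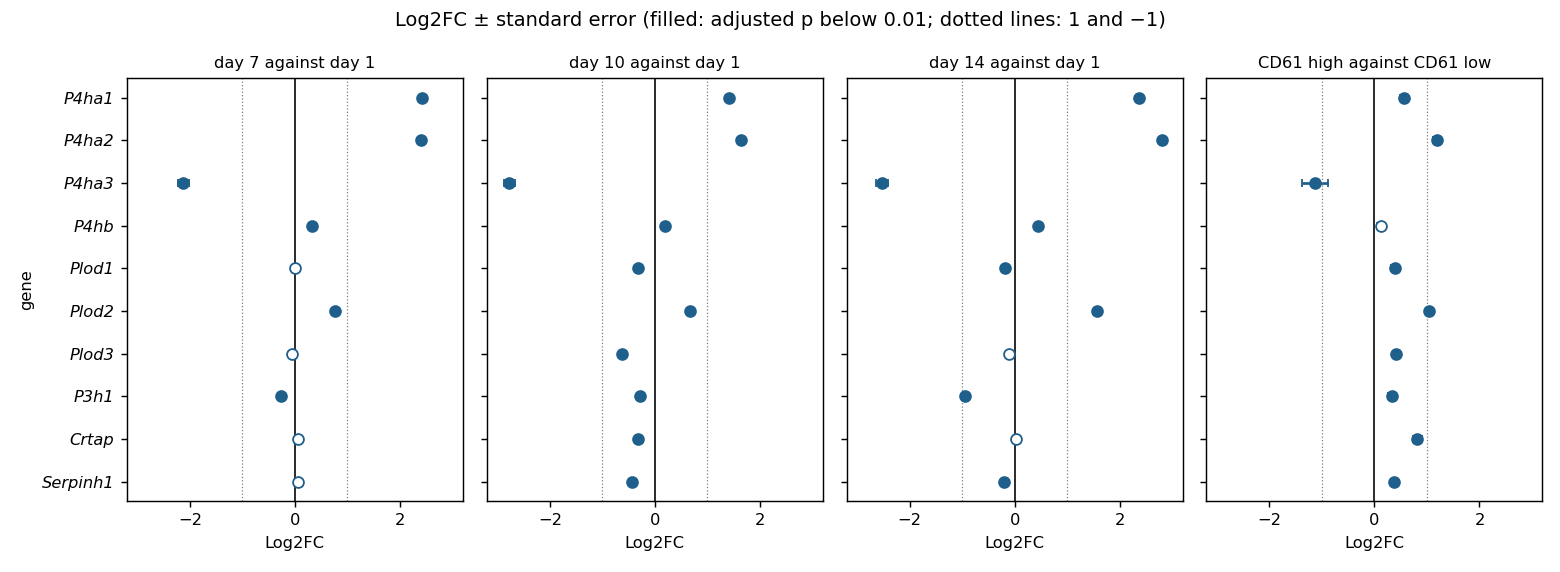
Log2FC with its standard error (horizontal axes) for each gene (rows) at days 7, 10 and 14 against day 1 and in CD61 high against CD61 low cells; filled points passed an adjusted p below 0.01 and dotted lines mark 1 and -1. P4ha1, P4ha2 and Plod2 lie to the right in all 4 panels and P4ha3 to the left, while P3h1 lies left over the days and right in the sort.

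At day 7, 4 of the 10 genes passed as higher and 2 as lower than day 1, where 24.5% and 32.0% of all genes tested did, and 2 were called higher and 1 lower, against 4.49% and 4.62%. At day 10, 4 were higher and 6 lower (33.1% and 30.3% of all genes), with 2 called higher and 1 lower (6.06% and 4.42%). At day 14, 4 were higher and 4 lower (32.6% and 36.0%), with 3 called higher and 1 lower (7.51% and 5.90%). The libraries of the 2 days did not overlap for 9, 10 and 10 of the 10 genes at days 7, 10 and 14, where they did not for 83.7%, 86.4% and 87.1% of all genes. The median Log2FC of the 10 genes was 0.06, -0.30 and -0.04 at the 3 days, beside -0.05, 0.02 and -0.03 over all genes tested. The passing counts were thus near the share of all genes at day 14, and the called genes were P4ha1, P4ha2, P4ha3 and, at day 14, Plod2.

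Day 10 stood apart. Against day 7, 8 of the 10 genes passed as lower and 0 as higher, where 18.9% and 29.8% of all genes did, all 10 Log2FC values were below 0, and their median was -0.44 beside 0.07 over all genes. The 8 ranged from P4ha1, which fell by 1.00 on the log2 scale, to P4hb at -0.13, and Plod2 (-0.08) and P3h1 (-0.02) did not pass. None of the 10 was called in either direction in limma (1.43% and 0.786% of all genes were), and 1 was called lower when edgeR was run on the recovered reads. From day 10 to day 14, 8 genes passed as higher and P3h1 as lower, where 22.9% and 30.0% of all genes did; P4ha2 was called, against 2.09% of all genes called higher and 0.872% called lower, and the median was 0.29 beside -0.04. The libraries of the 2 days did not overlap for 9 of the 10 genes between days 7 and 10 (79.8% of all genes) and for 10 between days 10 and 14 (80.0%). The smallest of these steps depended on the setting: P4hb between days 7 and 10 and Plod1 between days 10 and 14 did not pass in several alternatives. Because each day has its own 2 libraries and no other grouping, a feature of the day 10 cultures as such cannot be told apart from the time point.

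In sorted cells most of the genes were higher where CD61 was high. P4ha2 and Plod2 were about 2-fold higher in CD61 high cells, Crtap, P4ha1, Plod3, Plod1, Serpinh1 and P3h1 were higher by less, P4ha3 was lower, and P4hb did not pass. These values are estimated counts per gene scaled with TMM, which corrects library totals for a few very abundant genes, and were tested with edgeR over 12077 genes with the same thresholds.

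P4ha2 measured 295, 240.0 and 273 TMM-normalized CPM where CD61 was low, against 618, 603 and 626 where it was high. Every CD61 high library was above every CD61 low library, and Log2FC was 1.19 ± 0.08 (SE; adjusted p = 1.9e-06), or 0.89 with library size alone, which passed but was not called. P4ha1 measured 287, 259 and 290.1 in CD61 low and 428, 395 and 408 in CD61 high libraries, also without overlap, with a smaller Log2FC of 0.56 ± 0.07 (adjusted p = 1.2e-04) that was 0.26 with library size alone (adjusted p = 0.0075). P4ha3 measured 3.44, 4.32 and 5.17 in CD61 low and 1.47, 2.07 and 2.35 in CD61 high libraries. These values rest on 25 to 106 estimated reads a library, the fewest of the 10 genes. Its Log2FC was -1.13 ± 0.25 (adjusted p = 0.0034), and it no longer passed without CD61 low replicate 2 (adjusted p = 0.012), without CD61 low replicate 3 (0.011), without CD61 high replicate 1 (0.013) or with an offset for transcript length (Log2FC -0.97, adjusted p = 0.025).

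In TPM, a per-length unit, P4ha2 made up 58.6% ± 1.1 (SD, n = 3) of the alpha subunit genes in CD61 low and 68.9% ± 0.99 in CD61 high cells. P4ha1 made up 39.8%, 41.6% and 40.0% in CD61 low and 31.6%, 31.3% and 29.6% in CD61 high libraries, which did not overlap. The difference of -9.61 percentage points reached p = 0.10 in a two-sided exact permutation test, the smallest p that 3 against 3 libraries can give. P4ha3 was 0.938% and 0.246% of the sum. Shares from TPM and from the listed lengths of the differentiation table come from separately normalized tables, so the sorted shares are not set against those of the days.

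P4hb measured 1406, 1283 and 1280.0 TMM-normalized CPM in CD61 low and 1410.3, 1479 and 1427 in CD61 high libraries. The groups almost touched, and the Log2FC of 0.12 ± 0.07 did not pass (adjusted p = 0.17); scaled by library size alone its sign turned, to -0.18 (adjusted p = 0.044). The summed alpha subunit genes per P4hb, in TPM, were 43.5%, 41.2% and 52.0% in CD61 low and 87.6%, 74.3% and 81.5% in CD61 high libraries, a difference of 35.6 percentage points (exact permutation p = 0.10, the smallest possible).

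Plod2 measured 202, 192 and 211 TMM-normalized CPM in CD61 low and 443, 389 and 417 in CD61 high libraries, with Log2FC of 1.05 ± 0.07 (adjusted p = 2.2e-06), or 0.75 with library size alone, which passed but was not called. The lowest CD61 high library was far above the highest CD61 low library. Plod1 (147, 149 and 144 against 191, 186 and 196; Log2FC 0.38) and Plod3 (189.8, 172 and 168 against 226, 245 and 236; Log2FC 0.42) were also higher in CD61 high cells without overlap, though neither passed with library size alone (0.08 and 0.12). Plod2 made up 34.6%, 33.3% and 35.5% of the lysyl hydroxylase genes in CD61 low and 48.8%, 42.7% and 43.9% in CD61 high libraries, in TPM, a difference of 10.7 percentage points (exact permutation p = 0.10).

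Crtap measured 139, 127 and 125 TMM-normalized CPM in CD61 low and 199, 244 and 246 in CD61 high libraries, with Log2FC of 0.82 ± 0.09 (adjusted p = 5.4e-05) that was 0.52 with library size alone. CD61 high replicate 1 was the lowest of its group and still well above CD61 low. P3h1 measured 84.4, 88.3 and 84.5 in CD61 low and 105, 105 and 114 in CD61 high libraries, and its Log2FC of 0.33 ± 0.07 passed (adjusted p = 0.0025). It no longer passed with the replicate number as a block (adjusted p = 0.010), without CD61 low replicate 1 (0.013), without CD61 high replicate 3 (0.022), with the length offset (0.077) and with library size alone (0.73). Serpinh1 measured 1136, 1116 and 1083 in CD61 low and 1395, 1473 and 1469.5 in CD61 high libraries, without overlap, with Log2FC of 0.38 ± 0.07 (adjusted p = 8.1e-04) that fell to 0.08 with library size alone.

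**Figure D3:**
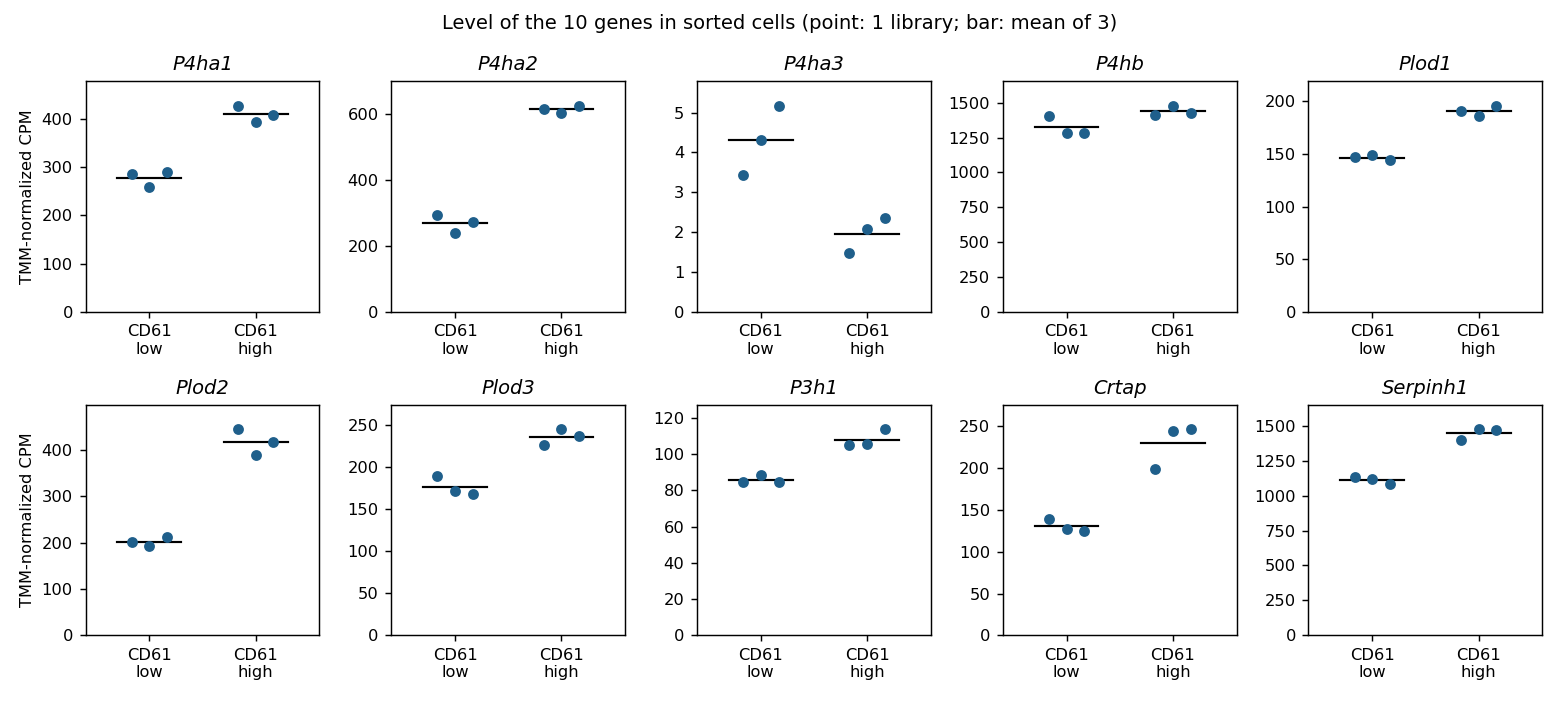
Level of each gene in TMM-normalized CPM (vertical axes, each from 0) in CD61 low and CD61 high libraries, with 1 point per library and a bar at the mean of 3. P4ha2 and Plod2 show the widest upward gaps in CD61 high cells relative to their level, P4ha3 the downward one, and the P4hb libraries nearly meet.

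In all, 8 of the 10 genes passed as higher and 1 as lower in CD61 high cells, where 19.4% and 16.0% of all genes tested did, and 2 were called higher and 1 lower, against 4.84% and 4.37%. The CD61 groups did not overlap for any of the 10 genes, which was also so for 58.0% of all genes. The median Log2FC of the 10 genes was 0.40 beside 0.00 over all genes. The scaling matters to these counts: the TMM factors were 1.10 to 1.13 in CD61 low and 0.895 to 0.909 in CD61 high libraries, and with library size alone the median of all genes moved to -0.30, 4 of the 10 genes passed as higher and 0 were called higher, where 9.27% and 2.60% of all genes did under that scaling. Marker genes of other cell types moved with the sort as well. The summed chondrocyte list stood at 38.8 to 48.7 TMM-normalized CPM in CD61 low and 101 to 117 in CD61 high libraries. Sox9 (mean 36.7 against 94.5), Comp (1.32 against 4.10) and Col2a1 (0.556 against 2.00) were called higher. Acan (mean 5.77 against 7.34) overlapped between the groups and did not pass. Col9a1 was below 1 in every sorted library, and Matn1 and Col10a1 were each at 0 in all sorted libraries but 1. The endothelial list stood at 14.8 to 20.9 against 72.5 to 91.3, through Vwf, with Cdh5, Kdr and Emcn at or near 0. Pecam1 (mean 0.208 against 0.039) and Tek (0.271 against 0.038) went the other way, at levels below 1 in every library. The macrophage list stood at 17.1 to 22.7 against 12.5 to 13.2. The part of these genes in the sorted differences was not tested.

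**Figure D4:**
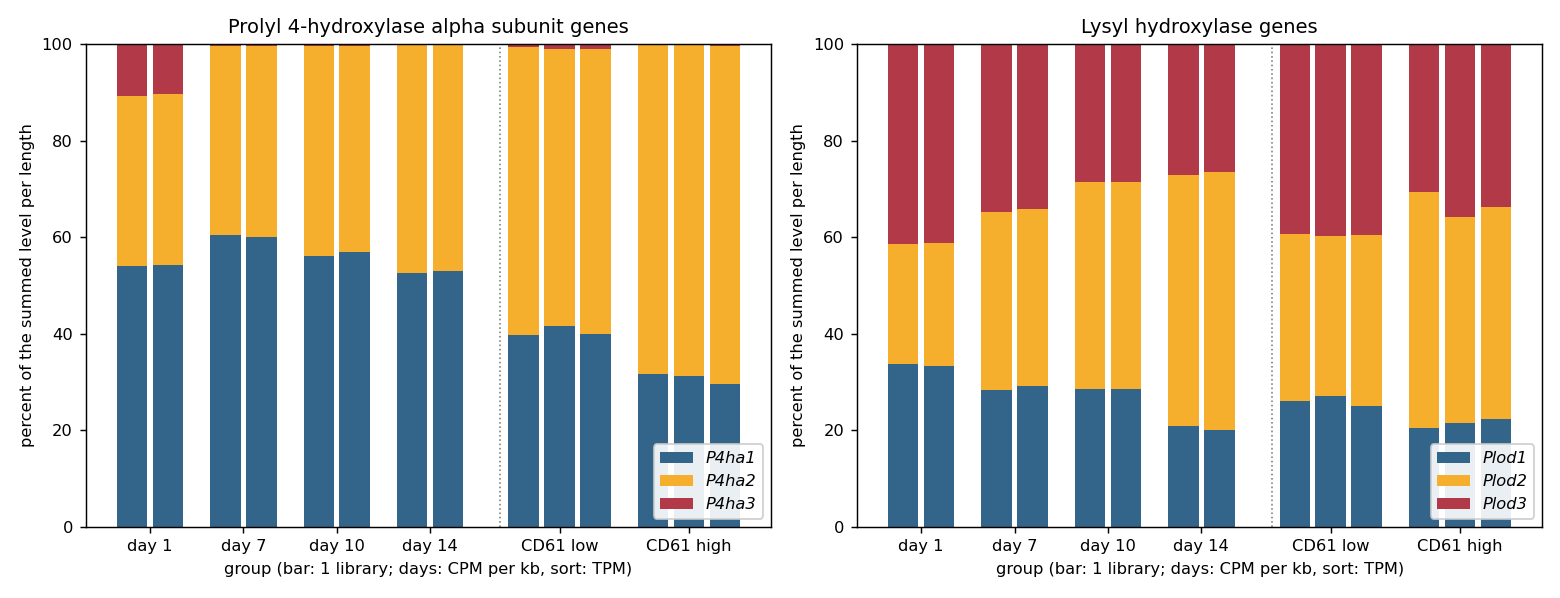
Share of each alpha subunit gene (left) and each lysyl hydroxylase gene (right) in the summed per-length level of its group, in percent (vertical axes), with 1 bar per library; the days use CPM per kb and the sort TPM, on either side of the dotted line. The Plod2 share is larger on each later day and in CD61 high than in CD61 low cells, and P4ha3 is visible mainly at day 1.

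Some of these genes are made in forms that differ by an alternative exon, and the sorted files, which hold estimates per transcript, allow the forms to be followed. The exons are shown because they are what separates the forms, all in GRCm39 on the plus strand. P4ha1 has a pair of exons of 71 bases that are not used together, at chr10:59190162-59190232 (upstream, in P4ha1-201) and chr10:59191172-59191242 (downstream, in P4ha1-202 and P4ha1-203). Capitals mark the 29 positions at which this pair differs. P4ha2 has exons of 60 bases (chr11:54017064-54017123, in P4ha2-202 and P4ha2-215) and 66 bases (chr11:54017172-54017237, in P4ha2-201). Plod2 has an exon of 63 bases (chr9:92484038-92484100) that is included in Plod2-203 and skipped in Plod2-201 and Plod2-205.
P4ha1 upstream: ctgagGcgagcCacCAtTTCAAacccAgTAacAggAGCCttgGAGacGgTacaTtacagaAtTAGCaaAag
P4ha1 downstream: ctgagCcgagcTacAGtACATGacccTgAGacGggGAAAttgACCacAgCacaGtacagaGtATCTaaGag
P4ha2 of 60 bases: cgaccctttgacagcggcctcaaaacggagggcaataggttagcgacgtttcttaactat
P4ha2 of 66 bases: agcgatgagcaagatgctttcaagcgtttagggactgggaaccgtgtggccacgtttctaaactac
Plod2 of 63 bases: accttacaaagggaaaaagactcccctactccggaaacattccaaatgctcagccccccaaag

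The Plod2 exon of 63 bases, a multiple of 3, was included in 88.6%, 82.8% and 82.2% of the TPM that spans it in CD61 low and in 74.1%, 80.5% and 72.5% in CD61 high libraries. Inclusion was the main form in every library and lower in each CD61 high library, by 8.86 percentage points on average (two-sided exact permutation p = 0.10, the smallest possible). The exon shares were not among the measures set at the start, which were shares of the whole gene. As a share of the whole gene, Plod2-203 held 85.3%, 79.8% and 78.8% in CD61 low libraries. In CD61 high libraries it held 69.6%, 79.3% and 70.4%, with overlap (exact permutation p = 0.20). The P4ha2 exon of 60 bases was used in 61.3%, 60.1% and 64.8% in CD61 low and 70.0%, 68.8% and 67.5% in CD61 high libraries, higher by 6.66 percentage points (exact permutation p = 0.10). For P4ha1 the upstream exon was used in 15.1%, 18.1% and 16.6% in CD61 low and 16.6%, 15.4% and 17.5% in CD61 high libraries, which overlapped (exact permutation p = 0.90). P4ha1-202, which lacks a further exon of 240 bases, made up 9.52% ± 2.7 (SD, n = 3) of P4ha1 in CD61 low and 14.7% ± 2.3 in CD61 high cells. For Crtap, 27.8% ± 3.4 in CD61 low and 35.1% ± 3.1 in CD61 high cells came from Crtap-202, a short transcript annotated as a retained intron. Both were picked from all transcripts of the 10 genes with a mean share of at least 10%, and others overlapped between the groups. Examples were Serpinh1-201 (47.0% against 54.6%, exact permutation p = 0.20) and P4hb-201 (86.3% against 86.1%, p = 0.90). Salmon assigns reads shared by transcripts through a model, so these shares are estimates.

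A further list held 26 genes of collagen maturation and secretion, among them general chaperones, transport genes and a transcription factor that do not modify collagen themselves, and 23 were tested. At day 14, 8 were higher and 11 lower than day 1 (32.6% and 36.0% of all genes), with a median Log2FC of -0.11 beside -0.03 over all genes. In CD61 high cells 12 were higher and 3 lower (19.4% and 16.0% of all genes), with a median of 0.38 beside 0.00. The sorted counts and medians are with TMM. With library size alone 9.27% of all genes passed as higher, but this list was not counted under that scaling. The summed level of the list did not rise, at 6246 to 6472 TMM-normalized CPM in CD61 low and 6220 to 6402 in CD61 high libraries. P3h2, another prolyl 3-hydroxylase, was called higher both at day 14 (Log2FC 4.58) and in CD61 high cells (2.16). Creb3l1, a transcription factor of secretory bone cells, was also called higher in both (1.08 and 1.38), and Kif26b, a kinesin family gene, was called lower in both (-3.47 and -1.62). In CD61 high cells Fkbp10, a collagen-binding prolyl isomerase that works with Plod2, was higher (Log2FC 0.98), and the general chaperones Hspa5 (-2.15) and Pdia3 (-1.09) were called lower. Ppib, which encodes the cyclophilin B of the P3h1 complex, was lower at day 14 (Log2FC -0.15, adjusted p = 0.0048) and did not pass in the sort (-0.08, adjusted p = 0.42).

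The fibrillar collagen chains, substrates of these enzymes, moved in both directions over the days and mostly upward in the sort. At day 14, 3 of 11 chain genes passed as higher and 5 as lower than day 1 (32.6% and 36.0% of all genes), with Col24a1 (Log2FC 4.80) and Col11a2 (3.45) called higher and Col3a1 (-3.57), Col27a1 (-2.96) and Col5a3 (-2.33) called lower. Col1a1, the main chain of bone collagen, measured 34732 and 34687 CPM at day 1 and 27852 and 22633 at day 14, with Log2FC of -0.47 (adjusted p = 2.7e-05), and Col1a2 did not pass at day 14 (0.07, adjusted p = 0.44). In CD61 high cells both were called higher, Col1a1 with Log2FC of 1.34 and Col1a2 with 1.37, and 9 of the 11 genes passed as higher (19.4% of all genes), Col27a1 (1.27) among them, with Col3a1 (-1.98) and Col5a3 (-3.30) lower. Per length, the summed 10 genes stood at 24.9% and 24.8% of Col1a1 plus Col1a2 on day 1, then at 37.6% and 37.2% (day 7), 34.3% and 31.0% (day 10) and 33.1% and 40.2% (day 14). Day 1 was below all later days, the day 7 and day 14 libraries overlapped, and those of day 14 differed most from each other. In the sort, in TPM, the same ratio was 31.3%, 33.7% and 27.0% in CD61 low and 15.3%, 16.97% and 15.8% in CD61 high libraries. The difference of -14.7 percentage points was without overlap (exact permutation p = 0.10) and was -6.09 when taken from estimated counts, which are not per length. Serpinh1 alone per type I collagen was 10.5% ± 1.3 (SD, n = 3) in CD61 low and 5.12% ± 0.29 in CD61 high cells.

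P4ha1, P4ha2 and Plod2 belong, as background, to the genes that hypoxia-inducible factors can activate in many cell types. A list of 20 other genes of the hypoxia response was therefore set beside them. Its summed level was 1494 to 1495 CPM on day 1, then 6522 to 6578 (day 7), 4245 to 4495 (day 10) and 9090 to 9634 (day 14), lower at day 10 than at days 7 and 14 as for P4ha1 and P4ha2. At day 14, 18 of the 20 were higher and 1 lower than day 1 (32.6% and 36.0% of all genes), with 17 called higher (7.51%) and a median Log2FC of 2.63 beside -0.03. Between days 7 and 10, 16 fell and 3 rose (18.9% and 29.8% of all genes). In CD61 high cells all 20 were higher (19.4% of all genes), 13 of them called (4.84%), with a median Log2FC of 1.04. Their summed level was 13029.8 to 13758 TMM-normalized CPM against 6477 to 7603. The count of 13 and the median are with TMM. With library size alone 2.60% of all genes were called higher, but this list was not counted under that scaling. Among them Egln3, an oxygen-sensing hydroxylase of the same enzyme class, measured 2.89 and 2.29 CPM at day 1 and 446 and 454 at day 14. Oxygen was not recorded in the sources used here, and the part of this response in the levels of the 10 genes was not tested.

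**Figure D5:**
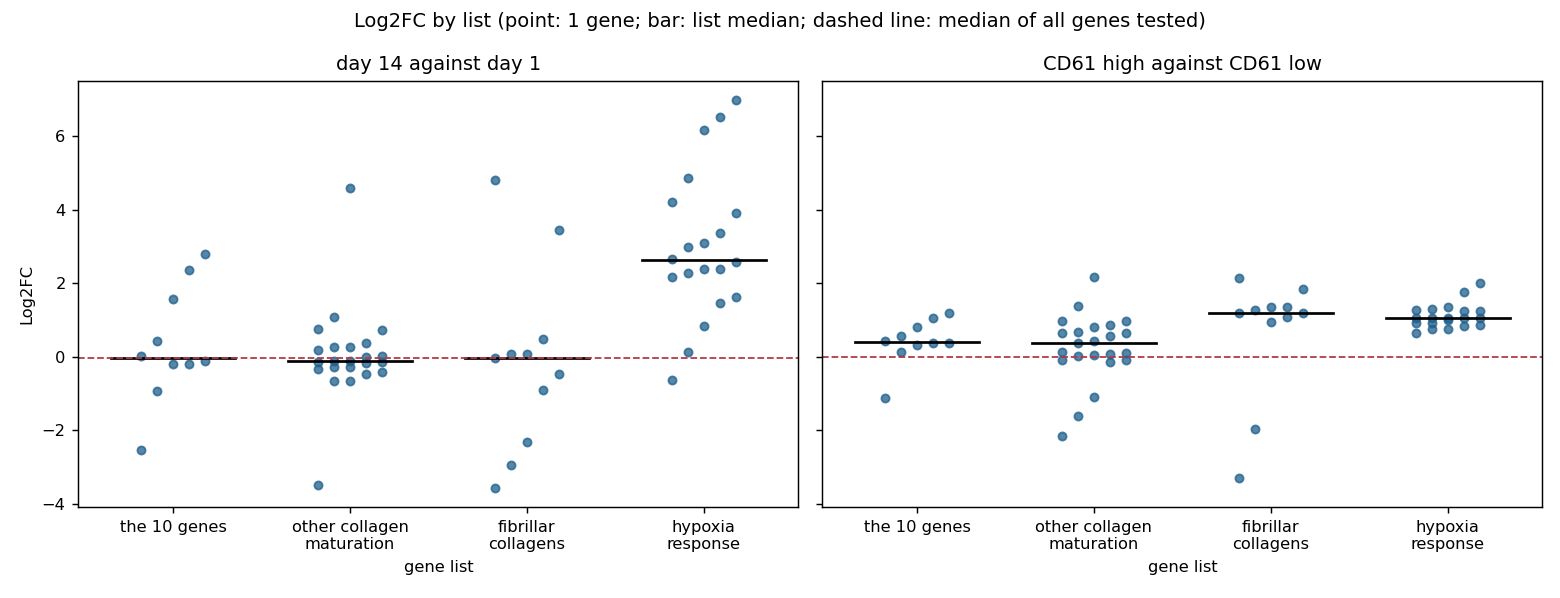
Log2FC (vertical axes) of the 10 genes, of 23 other collagen maturation genes, of 11 fibrillar collagen chain genes and of 20 hypoxia response genes, at day 14 against day 1 (left) and in CD61 high against CD61 low cells (right), with 1 point per gene, a bar at the list median and a dashed line at the median of all genes tested. The hypoxia list lies highest at day 14, with a median of 2.63, and in the sort the fibrillar chains and the hypoxia list have medians above 1.

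On the log2(CPM + 1) scale P4ha2 had the widest range of day means, 2.81 beside 2.77 for P4ha3, although in plain CPM P4ha3 ranged further (8.85-fold between its highest and lowest day means, against 7.06-fold). The scale was set in the rule for this search, so the genes whose profile was most like P4ha2 were sought among 1693 candidates that averaged 5 CPM or more and whose day means spanned at least 1 on the log2(CPM + 1) scale. Over the 8 libraries, which share the same 4 days and so are a description only, the closest were Ntng2 (Pearson r = 0.999), P3h2 (0.999), Nxph4 (0.998), Higd1a (0.998) and Aldoa (0.998). Ntng2 averaged 3.46, 28.5, 14.1 and 39.7 CPM at days 1, 7, 10 and 14, and Aldoa, a glycolytic enzyme that is in the hypoxia list, 265, 1138, 658 and 1386. Only 3 of the other 9 genes spanned enough to be candidates, of which P4ha1 stood at rank 48 (r = 0.988) and Plod2 at rank 337 (r = 0.915), while P4ha3 had r = -0.852; P4hb, whose range of 0.44 was too narrow for a candidate, had r = 0.977.

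For P4hb, Plod2, Plod3, P3h1 and Crtap, the annotation places a gene on the opposite strand within part of the locus (Gm57341, B430319G15Rik, Znhit1, AU022252 and 4930520O04Rik). Whether the counting of the differentiation reads used strand is not given in the sources used here, so reads from these partners cannot be told apart in the CPM values.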

How the data were processed

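RNA-seq of mouse Ocy454 cells was analysed in 14 libraries, grouped by their labels: 8 of differentiation and 6 sorted by CD61. For differentiation the authors aligned with STAR, used HTSeq-count for counting, and deposited a table of CPM and gene lengths; the build, annotation and versions are not given in the sources used here. All CPM values lay within 0.01 of whole reads, so reads were recovered. For the sort the authors ran Salmon on GRCm39 transcripts (release 104) and deposited estimated counts and TPM per transcript. Transcript values were summed per gene with GENCODE M39 (115556 of 116747 transcripts matched), and summed estimated counts were rounded. The sources describe separate cultures or groups of cells as replicates, and the p-values measure the spread between these libraries.

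Day comparisons used limma 3.58.1 on log2(CPM + 1), with a trend, all 8 libraries and genes above 1 CPM in at least 1 library. The deposited table holds CPM, so no count test was the main result there. The sort used the edgeR 4.0.16 quasi-likelihood test with TMM and at least 5 normalized counts in all 6 libraries. Both adjusted p-values by Benjamini-Hochberg over all genes tested, with 0.01 as the threshold. Ratios in the sort used two-sided exact permutation tests. The alternatives were a pseudocount of 0.1, other filters and normalizations, DESeq2 1.42.0, edgeR on recovered reads, a transcript length offset, a replicate block and leaving out each library. The fitting code was first checked on simulated data. Replicates differed by more than sampling noise (chi-square per gene 2.35 to 20.8) and were kept separate. A value of 0 allows up to 3 reads, a limit for counting error only. Promoters are RefSeq windows of GRCm38.p6, and exons and gene positions are from GRCm39.

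The 10 genes, the gene lists and the tests were chosen with earlier results of these data known. The named genes were the 10 genes in every comparison, passing genes of the collagen lists, genes of the hypoxia and marker lists, and the 5 genes most like the member with the widest range of day means of log2(CPM + 1). Flow cytometry, screen, shRNA and imaging data were not analysed here.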

Additional observations from a re-analysis of the deposited data

How the results depend on the processing

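Of 740 Log2FC values of the 10 genes under alternatives, 709 kept direction and side of the threshold; all values for P4ha1, P4ha2, Plod2 at day 14 against day 1 and in the sort passed in the same direction. In the sort, library size alone gave 4 genes passing higher and 0 called higher, turned P4hb to -0.18, and over all genes called 314 higher and 981 lower in place of 585 and 528. The transcript length offset left 0 genes lower, passing or called, as P4ha3 did not pass; without single libraries, passing or called lower ranged from 0 to 1. Between days 7 and 10, called lower was 1 with edgeR on recovered reads (0 to 1 without single libraries), and between days 10 and 14 called higher was 2. In these comparisons the all-gene calls rose from 182 higher and 100 lower to 334 and 216, and from 266 and 111 to 504 and 227; day 7 against day 1 rose from 571 to 876 higher. With a pseudocount of 0.1 they were 377 and 175, and 425 and 246; edgeR with library size alone, added after seeing the data, gave 405 and 181, and 456 and 270. Near 0, Plod1 at day 7 turned to 0.042 with edgeR and ranged from -0.025 to 0.018 without single libraries, and P3h1 between days 7 and 10 ranged from -0.070 to 0.035 without single libraries. The share of the P4ha1 upstream exon, like the other exon shares added after seeing the data, turned to 0.13 with estimated counts and ranged from -0.84 to 0.68 without single libraries. The ratio to type I collagen was -6.09 percentage points with estimated counts. Other causes of these moves were not tested.

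Although high and low libraries come from the same 3 groups of cells, the replicate numbers were not seen to pair them (correlation of same-numbered deviations -0.36, 0.26 and -0.07 in the sort, -0.007 to 0.072 over the days). Differently numbered sorted libraries ranged from -0.46 to 0.52, the highest for CD61 low replicate 3 with CD61 high replicate 1. A pairing under other numbers was not tested, and the main test treats the libraries as unpaired. With the replicate block the sorted calls were 574 higher and 509 lower in place of 585 and 528, P3h1 missed the threshold (adjusted p = 0.010), and no other of the 10 genes changed its side of the threshold. Depth limits P4ha3 most, with 25 to 106 estimated reads in sorted libraries.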
